A study of Nematostella vectensis with 4 samples.

Results

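In the mesentery of the adult sea anemone Nematostella vectensis, 86 gene models were read at a moderate level in sorted muscle cells and at a level at least 6 times lower in the remaining cells. They were chosen on the values themselves. A gene model was taken when its level in CPM (counts relative to library size, adjusted by TMM factors, the trimmed mean of M values) was at least 10 and under 100 in both muscle libraries, and when the lower muscle CPM was at least 6 times the higher non-muscle CPM. These 86 stand against 25729 gene models in the whole table and against 3372 gene models in the same muscle range of 10 to 100 CPM. CPM values are not corrected for gene length, so the order of gene models by CPM is an order of reads and not of transcript numbers.

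The libraries came from adults that all carried the MHC::mCherry transgene, a red fluorescent protein under control of myosin heavy chain (MHC) regulatory DNA. Mesenteries of 8 adults, per the extract protocol (the design text instead counts 8 transgenic lines), were dissociated with papain and collagenase after the distal-most tissue was cut away, and cells were sorted by fluorescence. The 2 groups were mesentery muscle (2 libraries, taken here as the mCherry+ sort) and mesentery non muscle (2 libraries, taken as the mCherry- sort), since the labels give the tissue but do not tie it to a sort gate. No untreated or transgene-free animals are among these samples, the non-muscle fraction is defined only by low fluorescence, and the labels do not say which animals entered which library. Variation between libraries of a fraction may therefore be technical. Fewer muscle cells and less RNA per cell cannot be told apart in such bulk libraries.

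The mesentery is an internal fold that joins the pharynx and body wall and carries the retractor muscle, digestive and stinging cells and the germ line. Its muscle cells are epithelial cells with contractile fibres at their base, and the retractor is the fast muscle that pulls the animal in. In muscle generally, myosin heavy chain and actin make up much of the messenger RNA, while regulators, channels, receptors and signalling proteins are read at lower levels.

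The gene models carry NVE identifiers only. Of the 25729 identifiers, 0 were found in the RefSeq genes of the jaNemVect1.1 assembly, so no name, function, position or sequence is given for any of them, the lists of contractile, calcium-handling and other genes could not be counted, and the labelled tissue could not be checked against muscle markers. Total counts were 34876467 and 53424952 in muscle replicates 1 and 2 and 31813772 and 67102862 in non-muscle replicates 1 and 2.

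The 86 gene models had between 10.02 and 99.98 CPM in muscle replicate 1, with a median of 28.8, and between 10.04 and 94.8 CPM in muscle replicate 2, with a median of 34.7. In non-muscle replicate 1 they had 1.004 to 13.4 CPM (median 3.73), and in non-muscle replicate 2 they had 0.290 to 12.8 CPM (median 2.13). Every one of them was read in the non-muscle libraries too, with at least 42 counts in replicate 1 and at least 23 in replicate 2, so they were enriched in the muscle fraction and not absent from the other. Their highest non-muscle levels overlapped the lowest muscle levels of other members, but within a member the groups did not overlap, which the rule requires. Over the whole table, both muscle libraries lay above both non-muscle libraries in 32.8% of 23804 gene models with a count, and the 6-fold limit was met at any level in 1.81% of them.

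**Figure D1:**
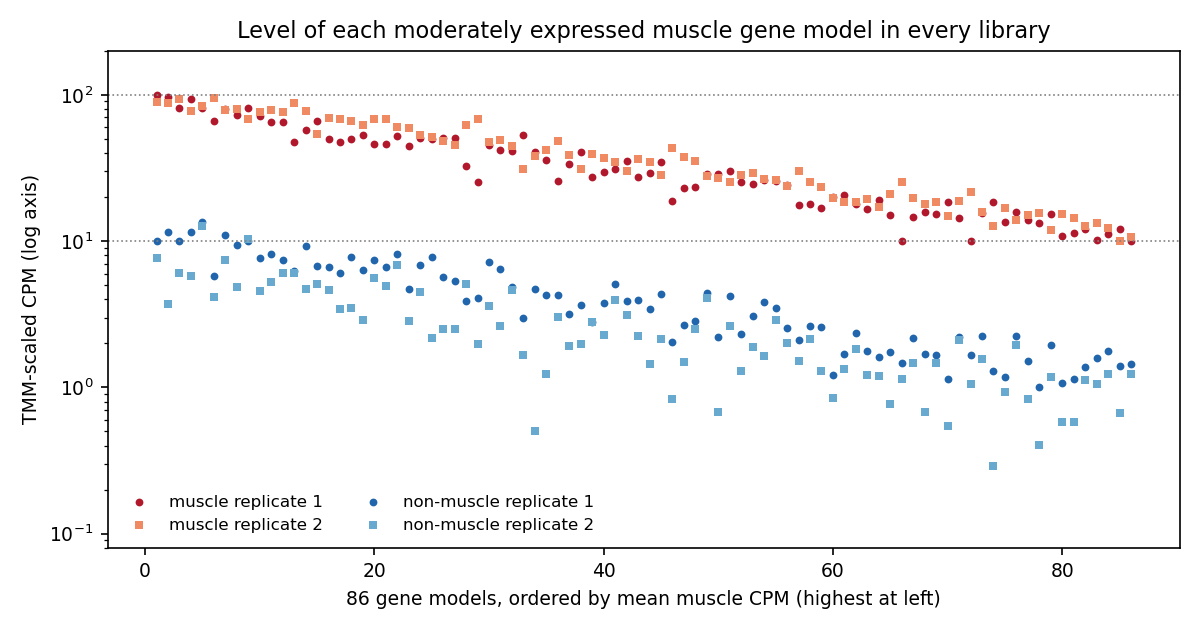
TMM-scaled CPM (log axis) of the 86 gene models in each library, ordered by mean muscle CPM, with dotted lines at 10 and 100 CPM. The muscle points lie between the dotted lines by construction. The non-muscle points of each gene model lie below its muscle points, though some lie above the 10 CPM line, up to 13.4 CPM. Non-muscle replicate 2 lies under replicate 1 in 83 of the 86.

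Together the 86 gene models took a small part of the reads. They held 0.237% and 0.295% of the counts of muscle replicates 1 and 2, and 0.0499% and 0.0287% of the counts of non-muscle replicates 1 and 2. The 59 gene models that met the same 6-fold limit at 100 CPM or more in both muscle libraries held 37.4% and 33.7% of the muscle counts and 6.29% and 3.01% of the non-muscle counts. The 6-fold limit was met by 2.55% of the 3372 gene models of 10 to 100 CPM in muscle and by 5.87% of the 1005 gene models of at least 100 CPM.

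The mirror image was smaller. With the fractions exchanged, 34 gene models had 10 to 100 CPM in both non-muscle libraries and at least 6 times the higher muscle CPM, which is 1.04% of the 3285 gene models in that non-muscle range. Scaling libraries by plain totals turned this order round. The rule then gave 12 gene models for muscle and 119 for its mirror image. The other scalings kept the order, at 79 and 34 under RLE factors and 79 and 33 under upper-quartile factors. TMM on filtered gene models gave 84 and 34. Plain totals moved the median log2 fold change of all gene models tested by -0.63. With a library left out under TMM, the muscle count stayed above its mirror image, at 174 and 83 without muscle replicate 1, 121 and 48 without muscle replicate 2, 224 and 203 when non-muscle replicate 1 was left out, and 84 and 65 when replicate 2 was.

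In the fit over all gene models, the log2 fold changes of the 86, muscle over non-muscle, ran from 2.67 to 4.46 with a median of 3.43, beside a median of -0.01 over all 17994 gene models tested. All 86 passed the filter on low counts and all 86 were called higher by edgeR's quasi-likelihood test, beside 23.7% of the gene models tested. The members were chosen on this contrast, so neither figure supports anything about them. Among all gene models tested, 4262 were higher (23.7%) and 3894 lower (21.6%), whereas plain library totals gave 2246 higher (12.5%) and 6873 lower (38.2%). Without muscle replicate 2 there were 2281 higher (12.4%) and 1406 lower (7.67%) gene models. Leaving out muscle replicate 1 gave 2442 lower ones (12.5%).

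By level in muscle, the members' folds were as follows. The 27 members with a mean muscle level under 20 CPM had a median log2 fold change of 3.61, the 26 of 20 to 40 CPM one of 3.46, the 21 of 40 to 70 CPM one of 3.38 and the 12 of 70 to 100 CPM one of 3.43. The rule sets a floor under these folds, and the bands were not tested against each other.

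The members with the most reads in muscle were NVE2900 and NVE1241. NVE2900 had 99.98 and 89.8 CPM in the muscle libraries against 9.99 and 7.64 CPM in the non-muscle libraries, a log2 fold change of 3.43 (SE 0.34). Its libraries agreed closely within each fraction. NVE1241 had 96.8 and 88.5 CPM in muscle against 11.6 and 3.69 CPM in non-muscle, a log2 fold change of 3.61 (SE 0.52). Its muscle libraries were alike, but its non-muscle level was much higher in replicate 1, and the log2 fold change was 4.67 with replicate 1 left out and 2.996 with replicate 2 left out.

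By the ratio of the lower muscle to the higher non-muscle CPM, which the rule used, NVE15471, NVE8549 and NVE23505 stood highest, all of low muscle level. By log2 fold change NVE863 stood highest (4.46), with a ratio of 9.23. NVE15471 had 19.9 and 19.8 CPM in muscle against 1.22 and 0.846 CPM in non-muscle, and its lower muscle value was 16.2 times its higher non-muscle value. This was the most even of the 3, with 535 and 885 counts in muscle and 51 and 67 in non-muscle. NVE8549 had 13.3 and 15.5 CPM in muscle against 1.004 and 0.404 CPM in non-muscle, a ratio of 13.3. NVE23505 had 18.4 and 14.9 CPM in muscle against 1.15 and 0.543 CPM in non-muscle, a ratio of 13.0. For both, non-muscle replicate 1 was the higher non-muscle library, and without it the log2 fold change was 5.16 in place of 4.40 for NVE8549 and 4.95 in place of 4.34 for NVE23505. In all, 42 members had such a ratio of at least 8, 12 of at least 10 and 31 of under 7, with a median of 7.86.

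The muscle libraries agreed for most members, with a lean towards replicate 2. Of the 86, 73 were within 1.5-fold between the muscle libraries and 4 differed by more than 2-fold. Replicate 2 was the higher library in 61 members and replicate 1 in 25, and the median log2 ratio (replicate 1 over 2) was -0.19. For 49 members the 95% counting interval of this ratio (exact binomial, counting error only) lay below 0, for 17 above 0, and for 20 it held 0. In the same muscle range, the other 3286 gene models had a median log2 ratio of 0.04, and the 59 abundant ones one of 0.03. These differences between sets were not tested.

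NVE19323 and NVE18091 departed most from this agreement. NVE19323 had 25.2 and 67.9 CPM in muscle replicates 1 and 2, against 4.11 and 1.97 CPM in non-muscle replicates 1 and 2. NVE18091 had 10.02 and 25.5 CPM in muscle against 1.46 and 1.15 CPM in non-muscle. Both were higher in muscle replicate 2 and both still lay above their non-muscle values in either library. Without muscle replicate 2 their log2 fold changes were 3.06 in place of 3.95 for NVE19323 and 2.96 in place of 3.78 for NVE18091, and without non-muscle replicate 1 that of NVE19323 was 4.57. The other members with a more than 2-fold difference were NVE863 and NVE8039, which were likewise higher in muscle replicate 2.

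In the non-muscle libraries the members were higher in replicate 1 almost throughout. This held for 83 of 86 (96.5%), with a median log2 ratio (replicate 1 over 2) of 0.67 and quartiles of 0.35 and 1.02. The counting interval lay above 0 for 64 members, held 0 for 21 and lay below 0 for NVE2903 alone, which had 3.90 and 5.10 CPM in non-muscle replicates 1 and 2. Only 39 members were within 1.5-fold between the non-muscle libraries, and 24 differed by more than 2-fold. The other 3286 gene models of the same muscle range had a median log2 ratio of -0.05, with 46.1% higher in replicate 1, and the 59 abundant gene models had one of 0.76, with 98.3% higher in replicate 1.

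**Figure D2:**
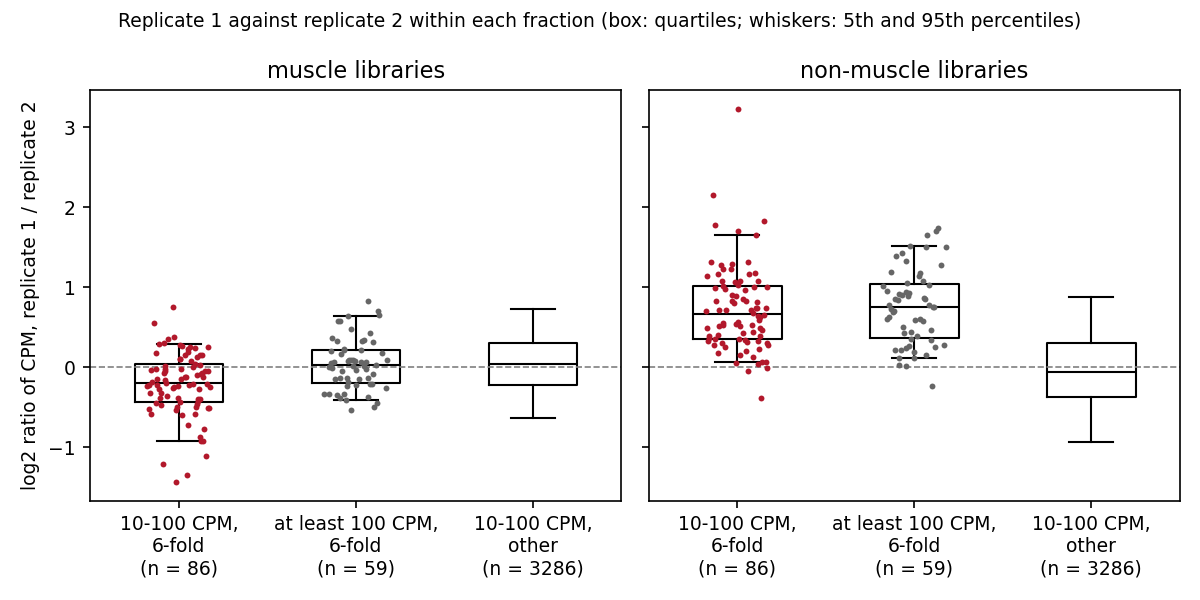
Log2 ratio of CPM, replicate 1 over replicate 2, in the muscle libraries (left panel) and the non-muscle libraries (right panel) for the 86 members, the 59 gene models of at least 100 CPM that met the same 6-fold limit, and the other 3286 gene models of 10 to 100 CPM in muscle. Points are gene models, boxes are quartiles with the median, and whiskers reach the 5th and 95th percentiles; in the non-muscle libraries both 6-fold sets lie above 0 (medians 0.67 and 0.76) and the other gene models lie around -0.05.

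Set against the mean muscle CPM of the same gene model, the level in non-muscle replicate 1 had a median of 11.3% over the members (6.14% to 16.2%), and in replicate 2 one of 6.76% (1.28% to 15.4%). The abundant 6-fold gene models, whose reads outnumbered those of the members by far, stood at medians of 11.7% and 6.54% in the same libraries. The medians changed little with level within the members, at 10.01% and 6.69% under 20 CPM and at 11.9% and 7.10% from 70 to 100 CPM. The rule caps these percentages, which narrows the range that any 6-fold set can show. Across the 86 members the percentages in the non-muscle libraries had a Pearson r of 0.57 on the log2 scale and a Spearman rho of 0.59. These values share the muscle mean in both terms and are given as a description. In replicate 1, 0 members were under 5%, and in replicate 2, 19 were. What share of this reading came from muscle cells or free muscle RNA in the non-muscle sort was not tested.

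**Figure D3:**
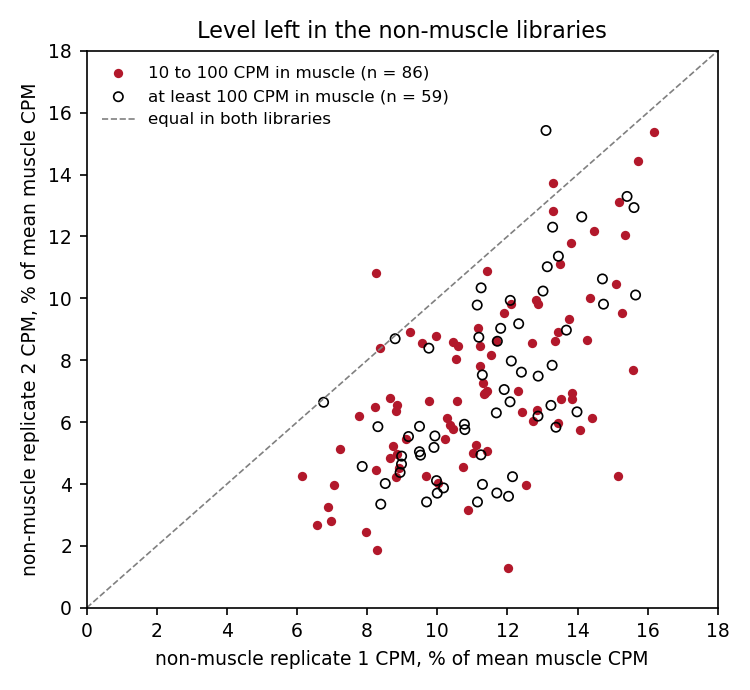
CPM in non-muscle replicate 2 against CPM in non-muscle replicate 1, each as a percentage of the mean muscle CPM of the same gene model, for the 86 members (filled) and the 59 abundant gene models (open). Nearly all points lie below the dashed line of equality, and both sets cover much the same area, with medians of 11.3% and 6.76% for the members and of 11.7% and 6.54% for the abundant gene models.

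The members least read in non-muscle replicate 2, relative to replicate 1, were NVE24097 and NVE17600. NVE24097 had 40.8 and 37.98 CPM in muscle replicates 1 and 2, against 4.73 and 0.505 CPM in non-muscle replicates 1 and 2, from 198 and 40 counts. Its muscle level was steady while its non-muscle level differed by 3.23 on the log2 scale, with a counting interval of 2.73 to 3.76. Its log2 fold change of 3.94 (SE 0.99) was 6.29 when non-muscle replicate 1 was left out and 3.06 when replicate 2 was, and it missed the edgeR threshold without muscle replicate 1 (adjusted p = 0.27) and without muscle replicate 2 (adjusted p = 0.20). NVE17600 had 18.6 and 12.6 CPM in muscle against 1.29 and 0.290 CPM in non-muscle, from 54 and 23 non-muscle counts. Its log2 fold change of 4.37 (SE 0.65) was 5.75 when non-muscle replicate 1 was left out and 3.59 when replicate 2 was. At the other end, NVE7762 had 81.6 and 68.3 CPM in muscle against 9.97 and 10.3 CPM in non-muscle, and NVE5134 had 27.6 and 39.4 CPM in muscle against 2.80 and 2.82 CPM in non-muscle. These and NVE2903 are the 3 members that were not higher in non-muscle replicate 1, and they were picked out after their values were seen.

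With each library left out in turn, the number of members changed most without non-muscle replicate 1 and next most without muscle replicate 1. A further 106 gene models of 10 to 100 CPM in both muscle libraries had a mean muscle CPM at least 6 times their mean non-muscle CPM and were not members. In 91 of these, only non-muscle replicate 1 lay above the lower muscle CPM divided by 6. In 1 only non-muscle replicate 2 did, and in 14 both did. The limit was set by the lower muscle library, and its part in keeping them out was not counted. Without non-muscle replicate 1 the rule took 224 gene models and without muscle replicate 1 it took 174, while without muscle replicate 2 it took 121 and without non-muscle replicate 2 it took 84. At a limit of 4-fold it took 250 and at 8-fold 42. At the edge of the rule, NVE8039 lay just inside with 10.1 and 21.7 CPM in muscle against 1.67 and 1.06 CPM in non-muscle (ratio 6.01), and NVE4205 just outside with 22.4 and 21.0 CPM in muscle against 3.51 and 1.60 CPM in non-muscle (ratio 5.98). The log2 fold change of NVE8039 was 2.90 without muscle replicate 2, in place of 3.55.

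The rule was applied to 3 libraries at a time, rescaled, and the fourth was then read. Of 84 gene models taken without non-muscle replicate 2, 82 (97.6%) also met the limit there, with a median ratio of the lower muscle CPM to that library of 12.8. Of 224 taken without non-muscle replicate 1, 83 (37.1%) met it there, with a median ratio of 5.32. Of 174 taken without muscle replicate 1, 85 (48.9%) met the level and fold limits there, with a median ratio to the higher non-muscle CPM of 6.44. Of 121 taken without muscle replicate 2, 78 (64.5%) met them, with a median ratio of 8.45. Each ratio still holds a value from the other fraction that the choice used, so these shares describe the rule and are no separate test of it.

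The numbers of the identifiers were not used in the choice, and gene models numbered next to a member were often higher in muscle as well. Of 140 tested gene models that were not members and whose number differed by 1 from that of a member, 54 were higher in the muscle fraction and 26 lower (edgeR, Benjamini-Hochberg adjusted p under 0.05). That is 38.6% higher and 18.6% lower, beside 23.7% and 21.6% over all gene models tested, and their median log2 fold change was 0.66. At a difference of 2 the share of higher calls was 20.5% of 132 gene models, at 3 it was 28.2% of 131, at 4 it was 19.8% of 131 and at 5 it was 22.4% of 116. From a difference of 2 on, the shares lay on either side of that of the whole table. Gene models adjacent to the 1013 others of the same muscle range that were called higher were themselves higher in 28.2% of 1417 cases, and those adjacent to the 59 abundant gene models in 37.9% of 95 cases. Members were left out of the 140 adjacent gene models but not out of these comparison sets. Any member in them was called higher through the choice, which raises their shares. Each comparison set in turn leaves out the gene models it started from. For the 1013, all of them called higher, this can lower the share of 28.2%. The 38.6% and the 28.2% are therefore not like measures. The differences between these shares were not tested. Under plain library totals 41 of the 140 adjacent gene models (29.3%) were higher, beside 12.5% of all gene models, and without muscle replicate 2 39 of 141 (27.7%), beside 12.4%. Whether consecutive numbers mark neighbouring genes, split models of 1 gene or overlapping models that share reads is not given in the sources used here.

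**Figure D4:**
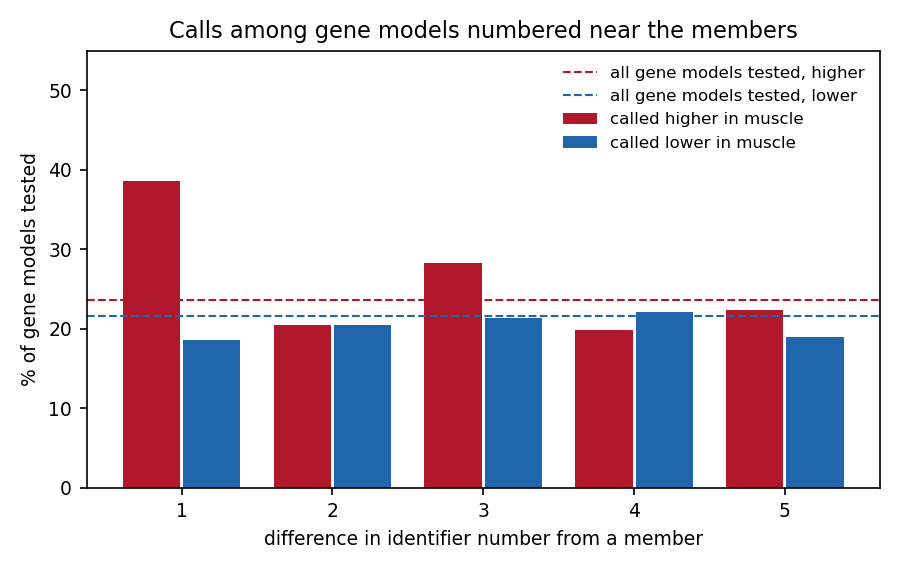
Share of tested gene models called higher (red, left bar of each pair) or lower (blue) in muscle, in percent, against the difference between their identifier number and that of a member; members themselves are left out. Dashed lines give the shares over all gene models tested, and the bar for higher calls at a difference of 1 (38.6%) stands above its line (23.7%).

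Many of these adjacent gene models were strongly higher. A log2 fold change equal to at least 6-fold was found in 24 of the 140 (17.1%), all called by edgeR, beside 4.17% of all gene models tested and 5.72% of those adjacent to the other gene models called higher in the same muscle range. Among the 95 adjacent to the abundant 6-fold gene models it was found in 13 (13.7%), and these shares were not tested against each other. Members were not left out of the comparison sets, and every member is at least 6-fold higher through the choice. The sets of adjacent gene models leave out the gene models they started from, which can lower the 5.72% and the 13.7%. Of the gene models adjacent to members, 6 belonged to the abundant set. The shares for members and for abundant gene models therefore partly count the same pairs. The 24 were spread over a wide range of levels, from 0.682 to 456 CPM in mean muscle CPM. In 9 of them both muscle libraries were at 100 CPM or more, in 4 both were at 10 CPM or more with at least 1 under 100, and in 11 a muscle library was under 10 CPM.

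For 5 of the members named by rule, the adjacent gene model was among these 24. NVE24096, next to NVE24097, had 491 and 368 CPM in muscle replicates 1 and 2 against 64.3 and 30.4 CPM in non-muscle replicates 1 and 2. Its log2 ratio between the non-muscle libraries was 1.08, against 3.23 for NVE24097, so the adjacent pair did not vary alike between these libraries. NVE19324, next to NVE19323, had 308 and 290 CPM in muscle against 29.0 and 10.2 CPM in non-muscle. Its muscle libraries were near equal, whereas NVE19323 was much higher in muscle replicate 2. NVE8038, next to NVE8039, had 128 and 160 CPM in muscle against 17.4 and 11.5 CPM in non-muscle. NVE1242, next to NVE1241, and NVE2901, next to NVE2900, were far lower than their partners, with 1.12 and 0.805 CPM and with 11.7 and 3.58 CPM in muscle, against 0.215 and 0.0253 CPM and 1.22 and 0.265 CPM in non-muscle. NVE1242 lay under the lowest level of any member in non-muscle replicates 1 and 2 (1.004 and 0.290 CPM). Its fold change rests on few non-muscle reads.

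Members themselves also stood in adjacent pairs. NVE14985 had 64.9 and 76.8 CPM in muscle against 7.41 and 6.10 CPM in non-muscle, and NVE14986 had 93.3 and 77.9 CPM in muscle against 11.6 and 5.78 CPM in non-muscle. Both were of like level, but the higher muscle library was replicate 2 for NVE14985 and replicate 1 for NVE14986. NVE26062 had 15.9 and 18.05 CPM in muscle against 1.70 and 0.682 CPM in non-muscle. NVE26063 had 50.5 and 53.1 CPM in muscle against 6.91 and 4.46 CPM in non-muscle, a higher level with a smaller log2 fold change (3.19, against 3.86 for NVE26062). Without non-muscle replicate 1 the log2 fold change was 3.90 in place of 3.31 for NVE14986 and 4.65 in place of 3.86 for NVE26062.

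Members 2 or 3 numbers apart were joined by further gene models that were higher in muscle; these runs were picked out after their values were seen. In the run from NVE2900 to NVE2903, NVE2903 had 32.7 and 61.8 CPM in muscle against 3.90 and 5.10 CPM in non-muscle. Within the same run NVE2902, which met neither the level nor the fold limit, had 488 and 424 CPM in muscle against 77.7 and 55.2 CPM in non-muscle. All 4 gene models of this run were higher in muscle, but the higher muscle library was replicate 2 for NVE2903 and replicate 1 for the other 3. Around NVE1203, which had 11.9 and 23.5 CPM in muscle against 1.48 and 2.01 CPM in non-muscle, NVE1202 had 65.8 and 94.8 CPM in muscle against 5.81 and 4.13 CPM in non-muscle, and NVE1204 had 45.8 and 68.8 CPM in muscle against 6.69 and 4.94 CPM in non-muscle. All 3 were higher in muscle replicate 2 than in replicate 1. NVE12151 lay between NVE12150 and NVE12152 and had 4.21 and 3.87 CPM in muscle against 0.693 and 0.455 CPM in non-muscle. Its partners had 15.6 and 15.7 CPM (NVE12150) and 15.2 and 11.9 CPM (NVE12152) in muscle, against 2.25 and 1.57 CPM and 1.94 and 1.17 CPM in non-muscle.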

How the data were processed

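The authors deposited raw counts, whole numbers of reads per NVE gene model, in 1 column per library. Cutadapt and TopHat are named in the submitters' processing notes; how reads were counted, on which strand, and against which build and gene models is not given in the sources used here. Reads of overlapping or near-identical gene models may have been split or dropped. All 4 columns were used, and 1925 gene models had no count.

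CPM for the choice of members were scaled by TMM over all rows. Fold changes came from edgeR 4.0.16 in R 4.3.3 on the 17994 gene models kept by filterByExpr (minimum count 10, minimum total 15), with the robust quasi-likelihood test, 2-sided, with Benjamini-Hochberg adjustment over all gene models tested and a threshold of 0.05. The SE is the absolute log2 fold change over the square root of F. With 2 residual degrees of freedom, p-values reflect only how these libraries scatter, possibly for technical reasons, and an exact permutation of 2 against 2 libraries could not pass the threshold. Replicate numbers follow accession order. Alternatives were RLE, upper-quartile and plain-total scaling, no filter, DESeq2 1.42.0, limma-voom (limma 3.58.1), 4-fold and 8-fold limits, and each library left out.

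Members and lists were chosen with earlier results of these data known. Members were named by highest muscle CPM, highest ratio between the fractions, most unequal libraries, consecutive numbers and nearness to the 6-fold limit; any other named gene model was picked after its values were seen. The neighbouring NVE numbers were set by the identifiers alone.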

Additional observations from a re-analysis of the deposited data

How the results depend on the processing

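Plain library totals moved most results: 12 members in place of 86, 119 mirror-image gene models in place of 34, 2246 higher and 6873 lower gene models in place of 4262 and 3894, and a median log2 fold change of the members of 2.79 in place of 3.43. The share of members higher in non-muscle replicate 1 was 98.8% under plain totals and under upper-quartile factors, in place of 96.5%. By construction the 4-fold and 8-fold limits gave 250 and 42 members. With each library left out in turn there were 84 to 224 members, 48 to 203 mirror-image gene models, 2281 to 4561 higher and 1406 to 4333 lower gene models, and member medians of 3.15 to 3.90; the cause was not tested, and a lone library is assumed to vary like the other fraction. Between 85 and 86 members were called higher under the alternatives fitted with all 4 libraries. Of 140 gene models adjacent to members, 41 (plain library totals) to 55 (limma-voom) were, and without the filter 54 of 162. The members were chosen on this contrast, so their calls were largely fixed in advance. Over all gene models tested in the alternative fits with all 4 libraries, 12.5% (plain library totals) to 23.9% (limma-voom) were called higher. The alternatives for adjacent gene models were added after the data were seen. Of 98 fold changes of the 14 members named by rule under the scalings and left-out libraries, 95 kept direction and call; the other 3, all NVE24097, missed the threshold (adjusted p = 0.12 under plain totals, 0.27 and 0.20 without muscle replicates 1 and 2). RLE factors kept every count within 1.5 times; TMM on filtered gene models, run for member and mirror-image counts alone, and no filter, DESeq2 and limma-voom, run for the counts of calls alone, did so too. No paired analysis was possible because the labels give no replicate numbers shared by the fractions. Gene lists could not be counted without names. The lowest count of a member in a library was 23, and counting intervals cover counting error only.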
